A study of Mus musculus with 9 samples.

Results

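The genes of cholesterol synthesis, uptake, storage and efflux were followed in peritoneal exudate cells of diabetic and control mice that lack Apoe. The set holds 34 genes, chosen by name, in 5 classes: synthesis enzymes (18), control of the SREBP factors (5), uptake and lysosomal release (3), storage (2), and efflux with the LXR receptors (6). Of the 34, 33 had a row of their own among the 41096 genes of the deposited table and 29 were expressed highly enough to be tested. All 9 samples came from Apoe-/- mice. The 5 control samples were from mice injected with citrate buffer, and the 4 diabetic samples were from mice injected on 5 days, starting at an age of 8 weeks, with 40 mg/kg of streptozotocin, which destroys insulin-producing cells. A western diet followed for 8 weeks in either group. An injection of 1.5 mL of 3% thioglycollate, which provokes a sterile peritonitis, preceded collection by 3 days, and the exudate was washed out with 10 mL of PBS. The labels call the cells peritoneal macrophages and name no sorting or adherence step. Whether mice were pooled is not stated, and the p-values therefore cover only the spread between these samples.

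Cells keep their cholesterol within narrow limits through opposed transcription programmes. When sterols in the endoplasmic reticulum are low, SCAP escorts the factor SREBP-2 to the Golgi, where it is cleaved and then switches on the enzymes of the mevalonate and sterol pathway. INSIG proteins hold the complex back when sterols are plentiful. When oxysterols accumulate, the LXR nuclear receptors switch on export pumps and the ligase IDOL, which lowers the uptake of lipoproteins. Macrophages that take up more lipoprotein than they can export store cholesteryl esters and become the foam cells of atherosclerotic plaques.

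Expression is given as FPKM, fragments scaled to gene length and to library size. Comparison of levels between genes is only approximate, since reads shared between copies may be lost for some genes. Differences are log2 fold changes of diabetic over control, fitted with limma on log2(FPKM + 1), and a gene was called at a Benjamini-Hochberg adjusted p below 0.05 over all 11193 tested genes. The libraries held 14156421 to 16169060 reads in genes. Apoe, the gene that both groups are labelled as lacking, was measured at 231, 373, 286, 262 and 238 FPKM in control samples 1 to 5 and at 282, 296, 213 and 135 FPKM in diabetic samples 1 to 4. A gene total does not show which exons the reads came from, and no Apoe-intact sample was in the series, so this value neither checks the genotype nor measures intact apolipoprotein E transcript. Defining macrophage genes were abundant (Adgre1 at a mean of 284 FPKM and Cd68 at 1109 FPKM in control samples), whereas Itgam was at 0.115 FPKM and Lyz2 had no row. T cell markers were also measured, summing to 128 to 184 FPKM in control samples and to 453, 714, 231 and 656 FPKM in diabetic samples 1 to 4, with 14 of 15 tested markers called higher. In whole-sample RNA like this, fewer cells of a type and less RNA per cell cannot be told apart. Along the main axis of variation, diabetic sample 3 lay nearest the controls, with a score of 1.44 against 20.9 to 30.5 for the other diabetic samples and -23.5 to -11.2 for the controls.

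Promoter stretches of 4 members are shown because they carry the letters through which sterol genes are classically read: the sterol element bound by SREBP and the CCAAT box bound by its partner NF-Y. Each is the 250 bases before the transcription start, 5′ to 3′ on the gene's strand, from RefSeq on GRCm38.p6, with matches in capitals (CCAAT or its reverse ATTGG, and the sterol element). Hmgcs1, a cytosolic synthase early in the mevalonate pathway, is at chr13:119690101-119690350 (+). Mvk, mevalonate kinase, is at chr5:114444019-114444268 (+). Cyp51, lanosterol demethylase, is at chr5:4104698-4104947 (-). Mylip, which encodes IDOL and was the called member, is at chr13:45389492-45389741 (+).
Hmgcs1: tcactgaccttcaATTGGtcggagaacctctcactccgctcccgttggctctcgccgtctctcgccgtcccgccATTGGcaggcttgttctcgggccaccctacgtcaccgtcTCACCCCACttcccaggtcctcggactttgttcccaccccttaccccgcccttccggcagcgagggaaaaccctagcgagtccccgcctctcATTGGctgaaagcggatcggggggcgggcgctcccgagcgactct
Mvk: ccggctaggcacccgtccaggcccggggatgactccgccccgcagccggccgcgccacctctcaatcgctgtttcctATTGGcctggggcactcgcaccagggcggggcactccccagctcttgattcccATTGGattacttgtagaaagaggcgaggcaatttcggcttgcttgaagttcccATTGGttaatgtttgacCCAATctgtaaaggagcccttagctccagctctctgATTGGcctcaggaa
Cyp51: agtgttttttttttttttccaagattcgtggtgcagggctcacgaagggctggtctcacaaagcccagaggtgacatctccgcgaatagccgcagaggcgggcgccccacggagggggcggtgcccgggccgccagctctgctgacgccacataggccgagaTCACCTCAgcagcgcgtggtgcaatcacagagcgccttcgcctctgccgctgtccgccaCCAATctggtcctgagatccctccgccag
Mylip: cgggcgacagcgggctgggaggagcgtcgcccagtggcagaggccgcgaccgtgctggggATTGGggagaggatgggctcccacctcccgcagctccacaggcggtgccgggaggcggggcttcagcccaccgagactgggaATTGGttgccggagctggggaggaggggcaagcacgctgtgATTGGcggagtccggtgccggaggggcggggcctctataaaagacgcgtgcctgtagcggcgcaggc
Hmgcs1 held the sterol element TCACNCCAC once, with its first letter 137 bases before the start, and 3 CCAAT boxes. The bases just after this start were not found in a reference transcript of Hmgcs1, unlike for Mvk, Cyp51 and Mylip, so that distance is uncertain. Mvk held 5 CCAAT boxes and no sterol element. Cyp51 held 1 CCAAT box and 1 match to the looser sterol element TCACCNCA. Mylip held 3 CCAAT boxes and no sterol element.

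Promoter sequences were matched for 27 of the 34 members, and 6 of these had several start sites. Both strands were searched. A member with several start sites was counted once if any of them matched, which can raise the member counts. The shares of all promoters below are instead per promoter. CCAAT was found before 14 of 15 synthesis enzymes and 21 of 27 members, against 33.8% of all 32851 promoters of the same length. The GC box GGGCGG, a site of Sp1-type factors, was found before 14 of 15 synthesis enzymes and 20 of 27 members, against 32.7% of all promoters. The strict sterol element was found before 1 member, Hmgcs1, against 1.05% of all promoters. The looser form was found before 5 members (Apoe, Cyp51, Hmgcs1, Hsd17b7 and Srebf2), against 3.61%, and it also counts each strict site that reads TCACCCCAC. The LXR element DR4, which is AGGTCA repeated in the same orientation with 4 bases between the copies (0.0152% of promoters), and the lysosomal E-box TCACGTGA (0.785%) had no match before any of the 27 members. These letters describe the windows searched and do not show binding.

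Diabetic samples had higher Mylip, and no member of the set passed the test in the lower direction. Of 29 tested members, 1 was called higher and 0 were called lower. Over all genes 4.76% were called, 2.68% higher and 2.08% lower, so the members' share of calls was near the background. At an unadjusted limma p below 0.05 there were 9 members, 1 higher (Mylip) and 8 lower (Sqle, Cyp51, Sc5d, Dhcr7, Lipa, Nceh1, Nr1h3 and Scarb1), against 22.4% of all genes, 11.1% higher and 11.3% lower. The groups did not overlap for 2 members, Mylip upward and Nr1h3 downward, against 9.42% of all genes, 4.82% upward and 4.6% downward. The fold change was negative for 23 of 29 members, against 52.3% of all genes. The members' median was -0.16 beside -0.01 for all genes, and it became 0.07 when samples were scaled to macrophage markers, where the median of all genes was 0.22.

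**Figure D1:**
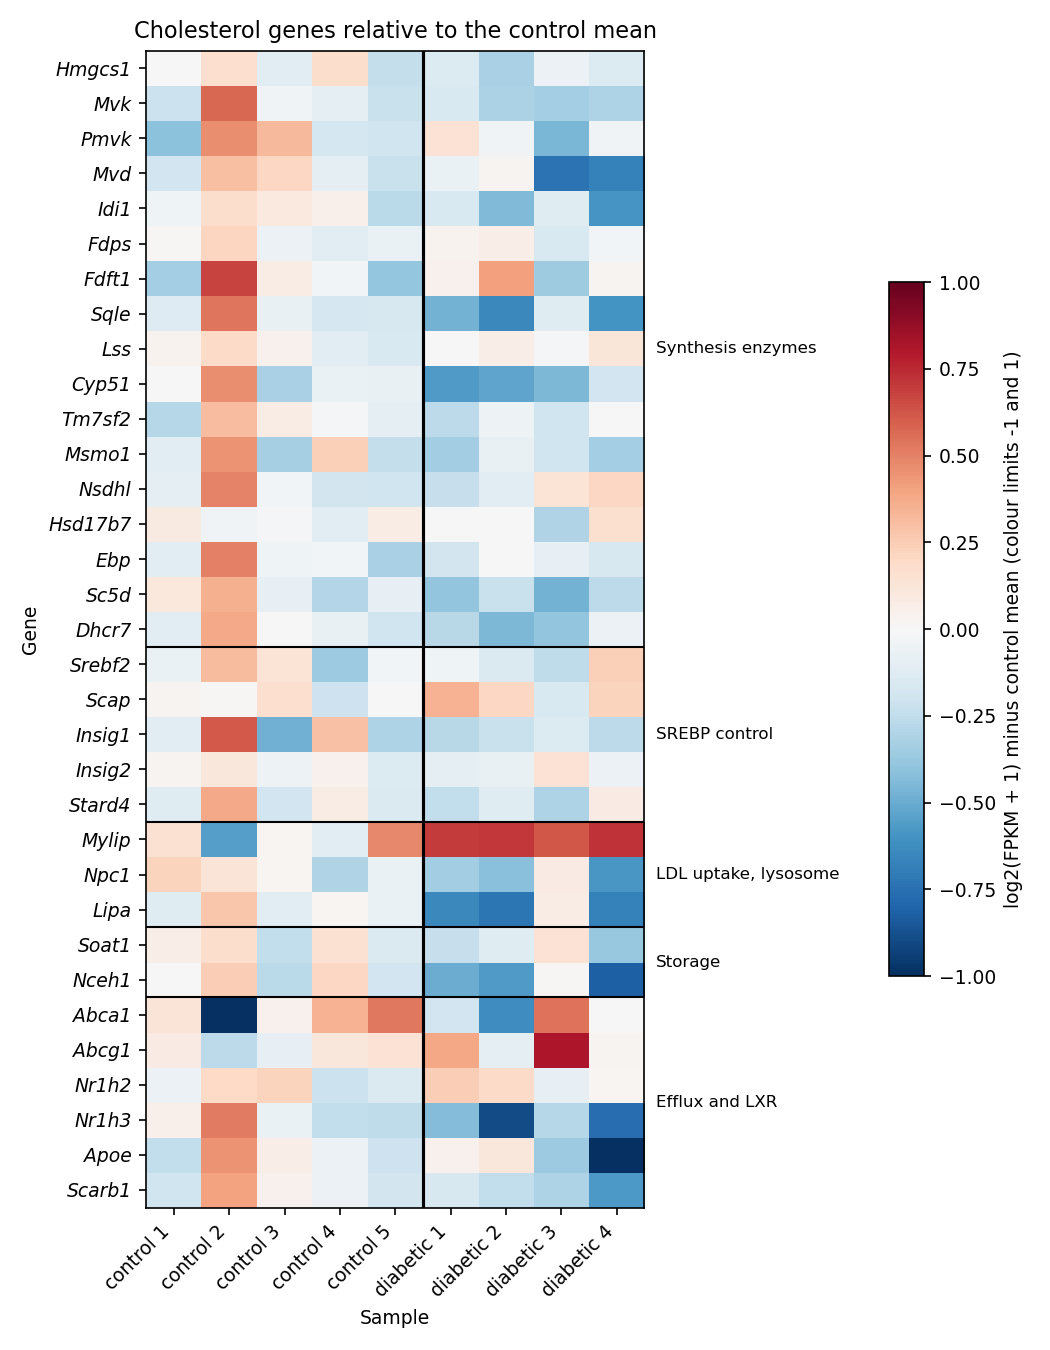
Heat map of the members with a row (rows, grouped by class) in the 9 samples (columns), coloured by log2(FPKM + 1) minus that member's mean over the control samples. Control sample 2 stands out in the synthesis rows, and Mylip is high in all 4 diabetic samples.

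The synthesis enzymes showed no called member among 13 tested, with a median fold change of -0.24, which was -0.01 under scaling to macrophage markers. In either case it was below the median of all genes, which the scaling raised. Of the 18 listed, 17 had a row (Acat2 did not), and most were weakly expressed: only Ebp, Mvd and Pmvk averaged at least 10 FPKM in control samples. Ebp, a sterol isomerase late in the pathway, was the most abundant at 37.4 ± 8.83 FPKM (SD, n = 5) in control and 34.1 ± 1.99 FPKM (SD, n = 4) in diabetic samples.

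Hmgcs1 was at 8.50, 9.69, 7.80, 9.74 and 7.03 FPKM in control samples 1 to 5 and at 7.65, 6.58, 8.13 and 7.61 FPKM in diabetic samples 1 to 4. The groups overlapped, and the fold change of -0.16 (SE 0.11) had a limma adjusted p of 0.423. Sqle, the squalene epoxidase that catalyses the first oxygenation on the way to sterols, was at 1.79, 3.43, 1.89, 1.72 and 1.73 FPKM in controls and at 1.20, 0.953, 1.80 and 1.02 FPKM in diabetic samples. Control 2 was far above the other controls, diabetic sample 3 lay among the controls, and the remaining diabetic samples lay below every control. The Sqle fold change was -0.46 (SE 0.17, limma adjusted p = 0.152), on 78 to 280 reads per sample. Cyp51, which removes a methyl group from lanosterol, was at 6.75, 9.74, 5.20, 6.44 and 6.40 FPKM in controls and at 4.24, 4.41, 4.70 and 5.82 FPKM in diabetic samples. Diabetic sample 4 lay above the lowest control, and the other diabetic samples lay below all controls. The Cyp51 fold change was -0.43 (SE 0.15, limma adjusted p = 0.129).

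Idi1, the isomerase that makes dimethylallyl diphosphate, was close to the limit of counting. It was at 0.455, 0.693, 0.605, 0.559 and 0.244 FPKM in controls and at 0.349, 0.106, 0.384 and 0 FPKM in diabetic samples, on 0 to 13 reads, and was not tested. Fdps, farnesyl diphosphate synthase, had 0 to 18 reads per sample and group means of 0.114 and 0.0971 FPKM. The table also holds 4 rows of Idi1-like and 5 of Fdps-like sequence, mostly pseudogenes, with at most 3 reads each, so reads shared between copies may have been lost and these low values are uncertain. Lss, lanosterol synthase (0.519 and 0.561 FPKM), and Hsd17b7, a sterol ketone reductase (0.626 and 0.595 FPKM), were also below the level for testing.

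The other early enzymes did not pass the test. Mvk, mevalonate kinase, averaged 4.67 ± 1.46 FPKM (SD, n = 5) in controls and 3.57 ± 0.274 (SD, n = 4) in diabetic samples. Its fold change was -0.28, and those of Pmvk and Mvd, the next enzymes of the mevalonate pathway, were -0.10 and -0.36. Fdft1, squalene synthase, averaged 3.35 FPKM in both groups. Among the enzymes after lanosterol, the fold changes were -0.13 for the reductase Tm7sf2, -0.24 for the methyl oxidase Msmo1, 0.00 for the dehydrogenase Nsdhl and -0.10 for Ebp. The last steps were Sc5d, the lathosterol desaturase, at -0.34 (SE 0.13, limma adjusted p = 0.16), and Dhcr7, the reductase of 7-dehydrocholesterol, at -0.30 (SE 0.13, limma adjusted p = 0.222). Sc5d averaged 7.54 ± 1.48 FPKM (SD, n = 5) in controls and 5.69 ± 0.533 (SD, n = 4) in diabetic samples, and Dhcr7 6.11 ± 1.18 and 4.77 ± 0.721.

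Much of the distance between the group means of the synthesis enzymes lay in control sample 2. That sample was the highest of all 9 for 15 of 17 enzymes. It was the highest control for 12 of the 13 tested enzymes, against 34.1% of all genes. The summed FPKM of the 17 enzymes was 110, 169, 123, 117 and 102 in control samples 1 to 5 and 107, 113, 97.5 and 103 in diabetic samples 1 to 4. Without control 2, the sums of the groups overlapped, as they did with it. The diabetic mean was below the control mean for 15 of 17 enzymes, and below the mean of the other four controls for 11 of 17. The class median fold change went from -0.24 to -0.13 without control 2. Among the controls, that sample also had the highest macrophage marker sum (11642 FPKM) and the lowest B cell marker sum (547 FPKM). It had the lowest score on the main axis of variation as well (-23.5). The part of cell composition in its synthesis values was not tested.

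**Figure D2:**
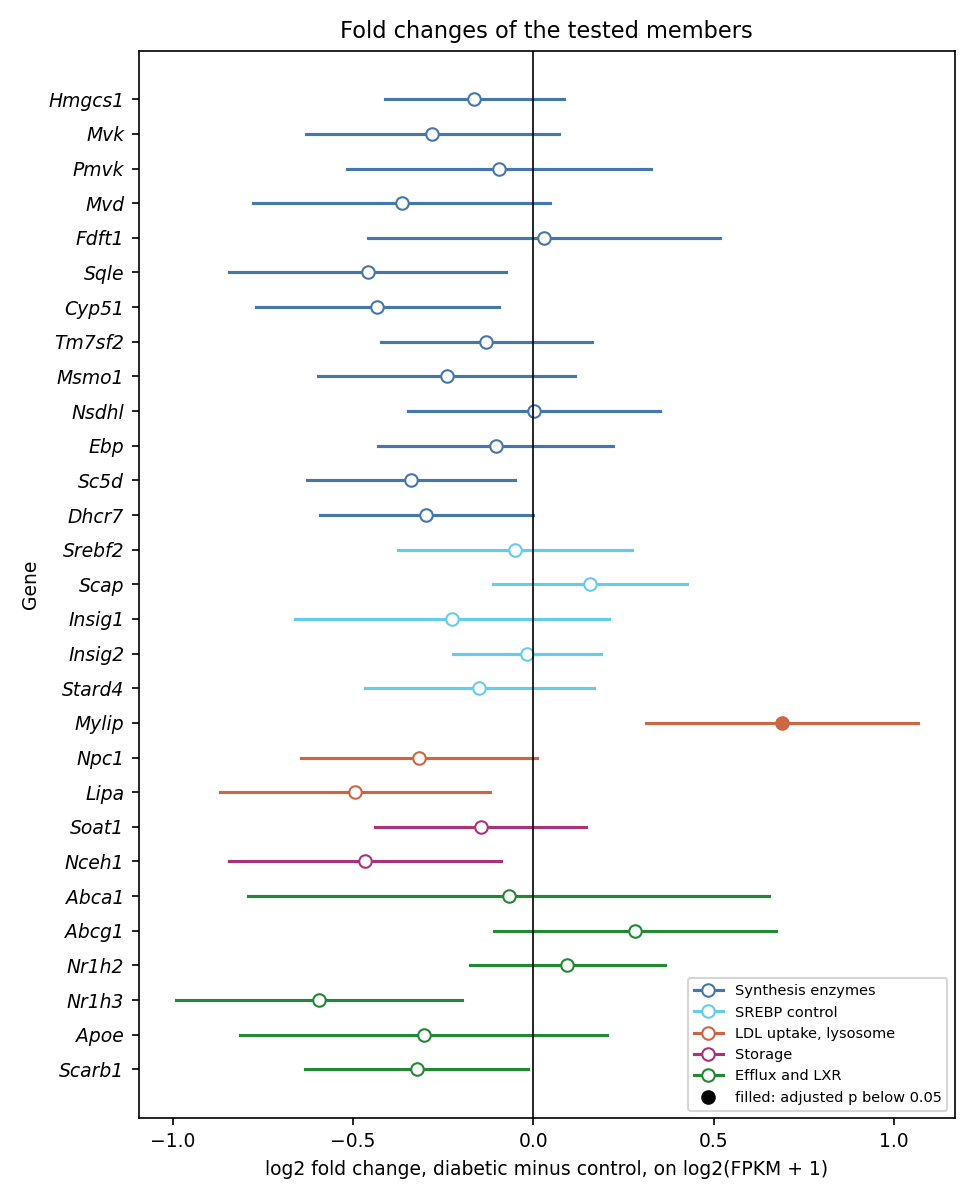
Log2 fold change of diabetic over control (horizontal axis) for the 29 tested members, as points with 95% confidence intervals from limma, grouped by class. The Mylip interval runs from 0.31 to 1.07 and that of Nr1h3 from -0.99 to -0.20, while most other intervals span 0.

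The genes that control SREBP gave no call among 5 tested, and their median fold change was -0.05 (0.18 under scaling to macrophage markers, beside 0.22 for all genes). Srebf2, the gene of SREBP-2 itself, was at 18.3, 24.2, 21.2, 14.6 and 18.8 FPKM in controls and at 18.6, 17.3, 15.9 and 22.8 FPKM in diabetic samples. The diabetic values lay within the control range, and the fold change of -0.05 had a 95% interval of -0.38 to 0.27 (limma adjusted p = 0.865). Insig1, a sterol-sensitive brake that is also an SREBP target, was at 10.3, 17.6, 7.72, 13.9 and 8.81 FPKM in controls and at 9.03, 9.44, 10.1 and 9.14 FPKM in diabetic samples. Controls 2 and 4 were high and the diabetic samples lay within the range of the others, with a fold change of -0.23 (SE 0.20, limma adjusted p = 0.54). The fold changes were -0.02 for Insig2, the second brake, and 0.16 for Scap, the escort of SREBP. Stard4, a carrier of free cholesterol, had -0.15. Transcript level does not measure cleavage of SREBP-2, which was not assayed here.

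Uptake and lysosomal release held the called member. Mylip encodes the E3 ubiquitin ligase IDOL, an LXR target that lowers lipoprotein uptake, and is on chromosome 13 from 45432886 to 45458608 (+) as the table gives it, with the build not named. It was at 21.6, 12.9, 19.6, 17.9 and 27.3 FPKM in control samples 1 to 5 and at 32.0, 32.2, 30.2 and 32.6 FPKM in diabetic samples 1 to 4. Every diabetic sample was above every control, and the diabetic values were close together. Mylip rose from 19.8 ± 5.28 FPKM (SD, n = 5) to 31.7 ± 1.06 FPKM (SD, n = 4), 59.9% higher, with a fold change of 0.69 (SE 0.17, limma adjusted p = 0.0462). The call lay close to the threshold: it held in 7 of 18 alternative fits, with adjusted p from 0.0238 to 0.116, and in 3 of the 9 that left out 1 sample. It was lost without control sample 1, 3 or 4 or diabetic sample 1, 2 or 4, while the fold change stayed between 0.55 and 0.92 over all 18. Markers of other cells also differed between the groups, in both directions. All 5 tested mast cell markers (median -0.85) and all 3 tested eosinophil markers (median -1.27) had negative fold changes, with 0 called. Beside the T cell markers given above, 2 of 11 tested B cell markers were called higher (sums of 547 to 1154 FPKM in control and 762 to 1892 FPKM in diabetic samples). Dendritic cell markers summed to 60.0 to 72.5 FPKM in control and 95.2 to 203 FPKM in diabetic samples, without overlap. Of 4 tested, 2 were called higher (Dpp4 and Ccr7, both also expressed by T cells) and 1 lower (Batf3), while Zbtb46, Xcr1 and Clec9a were too low to test. Markers of large peritoneal macrophages had positive fold changes for 8 of 9 tested, with 0 called and overlapping sums (745 to 1039 and 849 to 1256 FPKM). Diabetic sample 3 had the lowest T cell sum of its group, 231 FPKM, which was still above the 128 to 184 FPKM of the controls. Its Mylip, at 30.2 FPKM, was likewise the lowest of its group and above all controls. By sample, the B cell sums were 1154, 547, 1002, 660 and 1037 FPKM in control samples 1 to 5. In diabetic samples 1 to 4 they were 1512, 1799, 762 and 1892 FPKM. The part of all these cells in the Mylip difference was not tested.

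Lipa, the lysosomal acid lipase that frees cholesterol from ingested lipoprotein, was the most abundant member after Apoe. Its values by sample, like those of Nceh1, are given because they drew attention once seen. Lipa was at 173, 229, 175, 192 and 180 FPKM in controls and at 120, 114, 198 and 118 FPKM in diabetic samples. Diabetic sample 3 lay among the controls, and the other diabetic samples lay below all of them. The fold change was -0.49 (SE 0.17, limma adjusted p = 0.119) with all samples, and Lipa passed the test without diabetic sample 3 (-0.68, adjusted p = 0.00586). Fits without diabetic sample 3 are singled out because its values drew attention. Leaving it out also gave the most calls over all genes, so a pass there is not separate evidence. Npc1, the lysosomal membrane exporter of free cholesterol, was at 19.0, 17.7, 16.3, 12.9 and 15.3 FPKM in controls and at 12.4, 11.8, 17.1 and 10.4 FPKM in diabetic samples. Diabetic sample 3 was again among the controls. The Npc1 fold change was -0.32 (SE 0.15, limma adjusted p = 0.234), and -0.45 without diabetic sample 3 (adjusted p = 0.052).

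**Figure D3:**
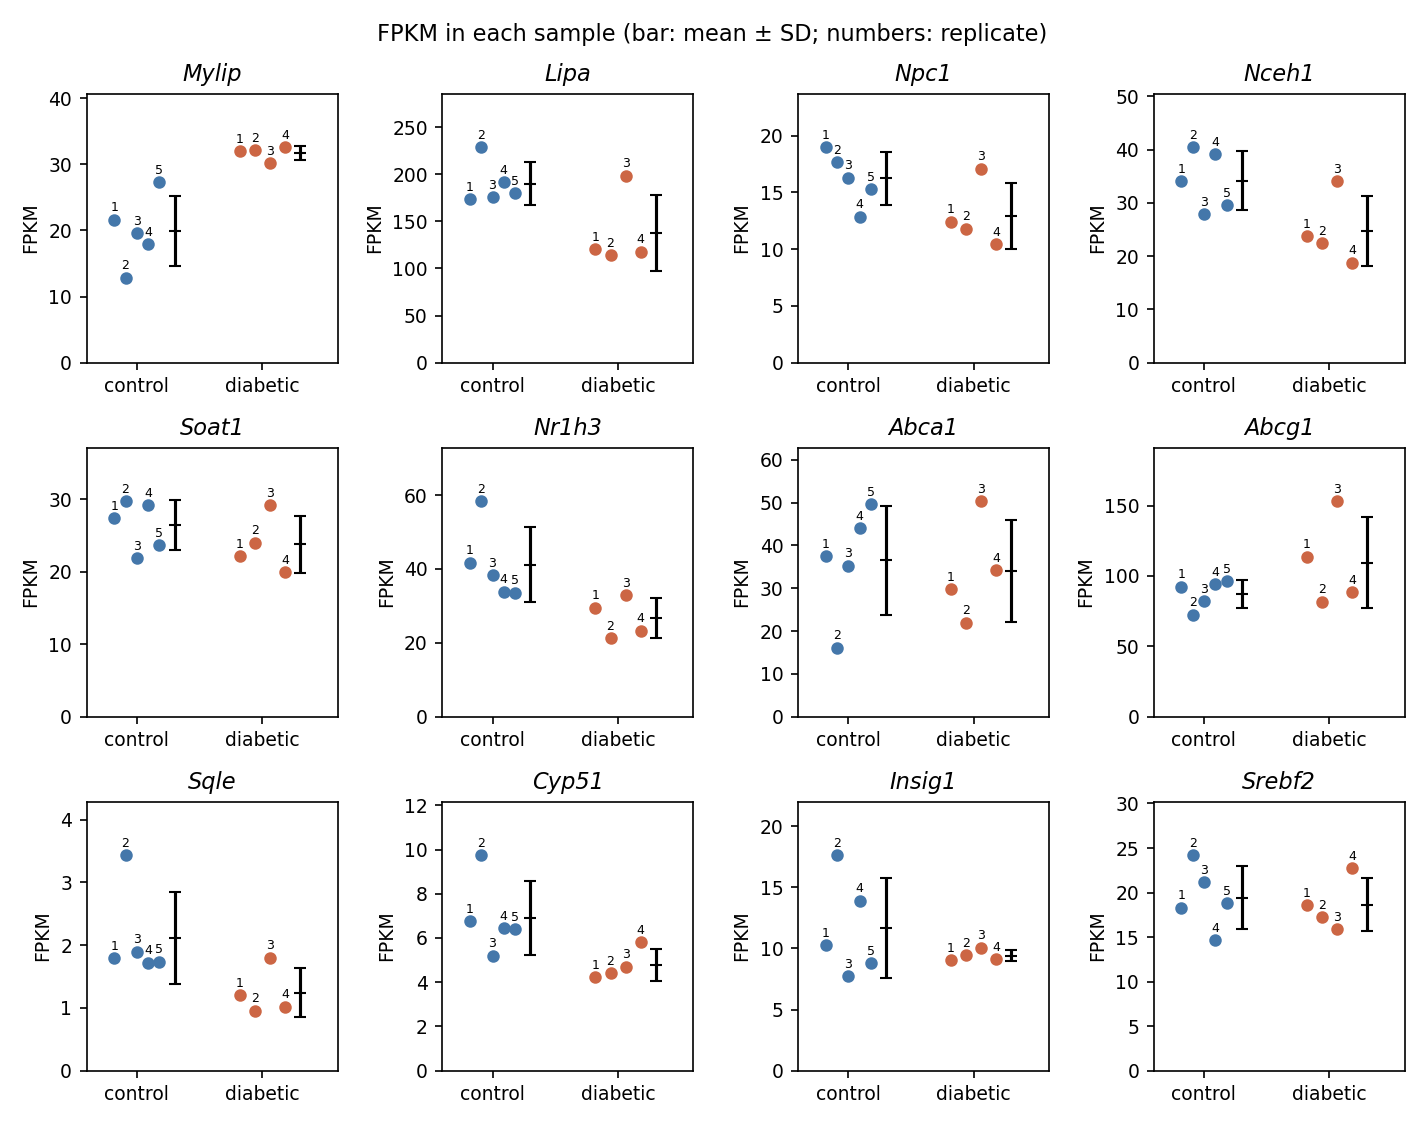
FPKM of selected members in each sample (points numbered by replicate, bars for mean ± SD), control on the left and diabetic on the right of each panel. The Mylip groups are separate, and in the Lipa panel diabetic sample 3 lies at the control level, at 198 FPKM.

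Storage was covered by 2 enzymes that work in opposite directions, and neither was called. Soat1, which esterifies cholesterol for droplets, was at 27.4, 29.7, 21.9, 29.2 and 23.6 FPKM in controls and at 22.1, 24.0, 29.1 and 19.9 FPKM in diabetic samples. The groups overlapped and the fold change was -0.15 (SE 0.13, limma adjusted p = 0.555). Nceh1, a hydrolase that releases cholesterol from the ester store, was at 34.0, 40.4, 27.9, 39.2 and 29.5 FPKM in controls and at 23.7, 22.5, 34.1 and 18.8 FPKM in diabetic samples. Diabetic sample 3 was at the control level and the other diabetic samples were below all controls. The Nceh1 fold change was -0.47 (SE 0.17, limma adjusted p = 0.142), and -0.63 without diabetic sample 3 (adjusted p = 0.024). As for Lipa, the latter fit was singled out after the values were seen. The ratio of Soat1 to Nceh1 within a sample, chosen after the values were seen and given without a test, was 0.805, 0.734, 0.784, 0.745 and 0.801 in controls and 0.932, 1.07, 0.853 and 1.06 in diabetic samples. The ratio ranges of the groups did not overlap, and they overlapped for the other ratios computed, all of a few chosen pairs of members. No background share was computed for ratios, so this separation cannot be called unusual. For single genes, the groups did not overlap in 9.42% of all genes.

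Among the efflux and LXR genes, 0 of 6 were called, with a median fold change of -0.19 (0.04 under scaling to macrophage markers). In either case it was below the median of all genes, which the scaling raised. Nr1h3, the gene of LXR alpha, is on chromosome 2 from 95757176 to 95778649 (-) as the table gives it. It was at 41.7, 58.3, 38.4, 33.9 and 33.6 FPKM in controls and at 29.5, 21.2, 32.9 and 23.3 FPKM in diabetic samples. All diabetic samples were below all controls, by a narrow margin between diabetic sample 3 and control sample 5. The means were 41.2 ± 10.2 FPKM (SD, n = 5) and 26.7 ± 5.42 FPKM (SD, n = 4), and the fold change of -0.59 (SE 0.18) did not pass the test at a limma adjusted p of 0.0849. It passed without diabetic sample 3 (-0.70, adjusted p = 0.040), a fit singled out after the values were seen. Nr1h2, the gene of LXR beta, averaged 39.7 ± 5.65 FPKM (SD, n = 5) and 42.3 ± 4.49 FPKM (SD, n = 4), a fold change of 0.09. The ratio of Nr1h3 to Nr1h2 within a sample, also chosen after the values were seen, was 0.834 to 1.29 in controls and 0.471 to 0.886 in diabetic samples, with diabetic sample 3 the highest of its group.

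The export pumps and acceptors did not pass the test. Abca1, which loads cholesterol onto lipid-poor apolipoprotein A-I, was at 37.5, 16.1, 35.3, 44.0 and 49.7 FPKM in controls and at 29.8, 22.0, 50.3 and 34.2 FPKM in diabetic samples. Control 2 was the lowest of all samples and diabetic sample 3 the highest, and the fold change of -0.07 had a 95% interval of -0.79 to 0.65 (limma adjusted p = 0.919). Abcg1, which exports cholesterol to high-density lipoprotein, was at 92.4, 72.4, 82.3, 94.1 and 96.1 FPKM in controls and at 114, 81.7, 153 and 88.4 FPKM in diabetic samples. Diabetic samples 1 and 3 were above all controls and the other diabetic samples were not, giving a fold change of 0.28 (SE 0.18, limma adjusted p = 0.38). Scarb1, a receptor for high-density lipoprotein, was at 6.85, 10.9, 8.25, 7.64 and 6.93 FPKM in controls and at 7.04, 6.59, 6.27 and 5.05 FPKM in diabetic samples. Only diabetic sample 1 reached into the control range, and the fold change was -0.32 (SE 0.14, limma adjusted p = 0.206). Apoe, a secreted acceptor of cholesterol in intact macrophages, had a fold change of -0.30 (SE 0.23, limma adjusted p = 0.471) on the gene totals given above. Mylip, Abca1 and Abcg1 are all known LXR targets, and their fold changes were 0.69, -0.07 and 0.28. Whether these differ from each other was not tested.

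**Figure D4:**
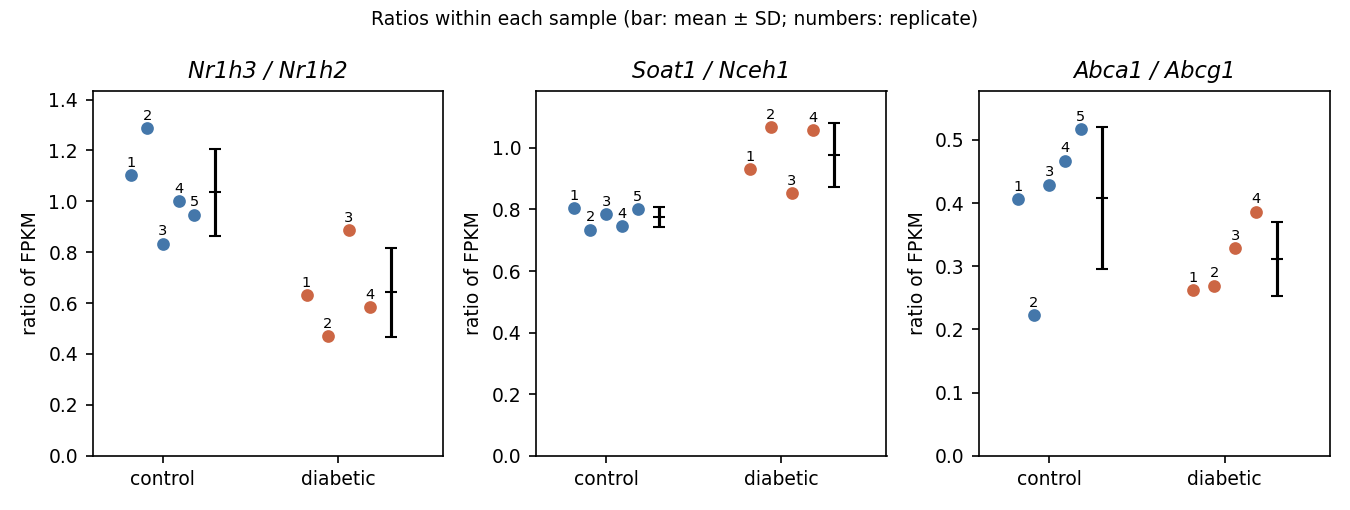
Ratios of FPKM within each sample (points numbered by replicate, bars for mean ± SD) for Nr1h3 to Nr1h2, Soat1 to Nceh1 and Abca1 to Abcg1. The Soat1 to Nceh1 ratios run from 0.734 to 0.805 in controls and from 0.853 to 1.07 in diabetic samples, while the Abca1 to Abcg1 ratios overlap (0.222 to 0.517 and 0.262 to 0.387).

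Diabetic sample 3 lay at the control level for Lipa, Npc1 and Nceh1, and it was also the highest of its group for most tested macrophage markers. Of the 8 members with an unadjusted p below 0.05 and a negative fold change, it was the highest diabetic sample in 4, among them Sqle and Nr1h3 from other classes. It was the highest diabetic sample for 11 of the 29 tested members, against 32.5% of all genes. Diabetic sample 4 was the lowest of its group for 5 of 29, against 25.6%. Macrophage markers summed to 7807 to 11642 FPKM in controls, to 10340 FPKM in diabetic sample 3 and to 8433, 8463 and 6160 FPKM in diabetic samples 1, 2 and 4. By these sums, diabetic samples 1 and 2 lay within the control range and diabetic sample 4 lay below it. The mean log2(FPKM + 1) of the 12 tested markers, which weights each marker equally, ranked the samples otherwise. It was 7.89, 7.88 and 7.59 in diabetic samples 1, 2 and 4, below all controls (8.01 to 8.33), and 8.33 in diabetic sample 3. Of 12 tested macrophage markers, 11 had a negative fold change and 1, the mannose receptor Mrc1, was called lower, with a list median of -0.20. Diabetic sample 3 was the highest of its group for 11 of these 12. The separate list of large peritoneal macrophage markers had a median of 0.27, and diabetic sample 3 was the highest of its group for 1 of the 9 tested. The part of cell composition in the lower values of Lipa, Nceh1, Npc1 and Nr1h3 was not tested.

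Beyond the members, a list of 85 other genes of sterol metabolism was examined, of which 82 had a row and 74 were tested. The list's median fold change was -0.07, beside -0.01 for all genes, and 46 of 74 were negative.

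None of the genes named next passed the test, and they are given as values because their p was among the smallest of their list. Among 15 tested genes of synthesis branches, Por, the electron donor of Cyp51 and Sqle, had -0.36 (limma adjusted p = 0.11) and Ggps1, which makes geranylgeranyl diphosphate, had 0.35 (adjusted p = 0.203). Among 15 genes around SREBP, Nfyc, a subunit of NF-Y, had 0.37 (limma adjusted p = 0.0883) and the ubiquitin ligase Rnf139 had 0.23 (adjusted p = 0.178). Among 9 genes of uptake and the lysosome, Tfeb, the factor that drives lysosomal genes, had -0.35 (limma adjusted p = 0.0883). Among 14 genes of sterol transport, the oxysterol-binding protein Osbpl11 had -0.38 (limma adjusted p = 0.142) and the endosomal carrier Stard3 had -0.36 (adjusted p = 0.159). Among 7 storage genes, Soat2, the second esterifying enzyme, had -0.38 (limma adjusted p = 0.213) on 35 to 106 reads and the droplet coat protein Plin3 had -0.31 (adjusted p = 0.235). Among 14 efflux and LXR genes, Rxra, the partner of LXR, had -0.41 (limma adjusted p = 0.166).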

How the data were processed

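Messenger RNA of 9 samples (5 control, 4 diabetic) was analysed from 1 table of FPKM values deposited by the authors, per the file headers, with gene length and position. Library preparation used a SMARTER kit, per the labels' protocols. Aligner and counter: not given in the sources used here. GRCm38 and mm10 appear in the submitters' processing notes, but the identifiers are of the C57BL/6NJ gene set. Of 33 members matched to RefSeq, the chromosome was the same for 33 and the start for 0. FPKM times length gave whole reads in all samples (100% within 0.05 of a whole number). No columns of samples were identical. Copies made by PCR could not be removed.

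Genes that reached 1 FPKM in 4 or more samples were tested with limma 3.58.1 (R 4.3.3, trend and robust moderation, group as the only factor, two-sided, Benjamini-Hochberg adjustment over 11193 genes) on log2(FPKM + 1), which understates the change of low genes. The script was tested on simulated data. The unit being FPKM, the count test was replaced by limma-voom on recovered reads as an alternative. Members and lists were chosen with earlier results of these data known. Every member is named. Values by sample are given for called members, members whose groups do not overlap and a set of 14 anchors, some of them among the former. From each further list the rule names called genes and the 2 of smallest p, of which some are not reported here. Acat2, acetyl-CoA acetyltransferase of the cytosol, had no row. Alternatives were other pseudocounts, filters, moderation, weights, scalings, voom, a replicate block and leaving out each sample.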

Additional observations from a re-analysis of the deposited data

Results flagged for a closer look

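Of 100 sets of values examined (66 of single members within a group and 34 of summed lists), 9 held a sample far from the others of its group. Chance gives about 1 in 20 for independent sets. These sets are not independent, because sums contain members also examined singly, so the count of 9 does not show an excess. Control sample 2 was the distant one in 5. Its Mvk level was 7.24 FPKM (other controls 3.74 to 4.40), its Sqle level 3.43 FPKM (1.72 to 1.89) and its Nsdhl level 6.24 FPKM (3.48 to 4.05). The summed SREBP control members reached 58.6 FPKM in control 2 (41.6 to 43.9 in the other controls), and the summed uptake members 259 FPKM (211 to 223). Diabetic sample 3 was the distant one in 3: Insig2 at 9.23 FPKM (other diabetic samples 7.70 to 7.90), Lipa at 198 FPKM (114 to 120) and the summed uptake members at 246 FPKM (158 to 165). The summed natural killer cell markers were 64.4 FPKM in control sample 4 (27.1 to 35.6 in the other controls).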

How the results depend on the processing

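The count of called genes depended on the processing. Over all genes, 533 were called (300 higher, 233 lower), against 183 (129, 54) with no filter on low values, 1304 (677, 627) with array weights, 202 (191, 11) with samples scaled to macrophage markers and 660 (358, 302) with voom. With FPKM of at least 5, 372 were called (187, 185). Leaving out 1 sample gave 146 to 1170 calls (97 to 619 higher, 49 to 551 lower), the most without diabetic sample 3. Members called were 0 with no filter, without trend or robust moderation, under upper-quartile rescaling, under scaling to macrophage markers and with the replicate block. With array weights 4 were called, 1 higher and 3 lower (Lipa, Nceh1 and Nr1h3). Leaving out 1 sample gave 0 to 4 (0 to 1 higher, 0 to 3 lower), with 4 without diabetic sample 3. The adjusted p of Mylip by limma was 0.11 with no filter, 0.052 without trend or robust moderation, 0.054 after upper-quartile rescaling and 0.067 under scaling to macrophage markers. Scaling to macrophage markers moved the median of all genes to 0.22. The member median then was 0.07, with -0.0091 for synthesis, 0.18 for SREBP control, -0.086 for uptake and 0.045 for efflux. Relative to the median of all genes these stayed lower. It gave positive fold changes to Hmgcs1 (0.07), Pmvk (0.13), Tm7sf2 (0.10), Ebp (0.13), Srebf2 (0.18), Insig1 (0.0042), Insig2 (0.21), Stard4 (0.080), Soat1 (0.084) and Abca1 (0.16). The sign also turned with array weights for Pmvk (0.12) and Nsdhl (-0.0085), and after upper-quartile rescaling for Insig2 (0.00021). Leaving out 1 sample gave ranges across 0 for Pmvk (-0.20 to 0.025), Fdft1 (-0.098 to 0.20), Nsdhl (-0.067 to 0.13), Ebp (-0.19 to 0.021), Srebf2 (-0.15 to 0.028), Insig2 (-0.072 to 0.010) and Abca1 (-0.33 to 0.11). None of these genes was called. The cause of these shifts was not tested. Idi1 and Fdps had 0 to 18 reads per sample, too few to compare the groups.

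Replicate numbers did not pair the samples: deviations of same-numbered samples correlated at 0.023, 0.16, -0.26 and -0.18. With the replicate number as a block over 8 samples, 62 genes were called (45 higher, 17 lower) and no member. Mylip had 0.81 (limma adjusted p = 0.067), and the sign turned for Fdft1 (-0.067), Nsdhl (-0.047) and Abca1 (0.063).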

Other observations

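Acat2 had no row under its name. A row named Acat3, which the table's description matches to the Acat2 protein, was at 1.07 ± 0.226 FPKM (SD, n = 5) in control and 1.21 ± 0.358 FPKM (SD, n = 4) in diabetic samples, on 25 to 57 reads.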
